A study of Mus musculus with 54 samples.

Results

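Transcripts of 9 genes of transforming growth factor beta (TGF-beta) and bone morphogenetic protein (BMP) signalling were followed in mouse microglia, the resident macrophages of the brain, that had taken up alpha-synuclein (aSyn) or had met cells that had. The 9 genes were a TGF-beta ligand (Tgfb1), a BMP ligand (Bmp8a), both TGF-beta receptor chains (Tgfbr1 and Tgfbr2), a signal-transducing and an inhibitory SMAD (Smad3 and Smad7) and the transcriptional corepressors Skil, Ski and Tgif1. They were taken by gene symbol from the 16632 genes of the deposited count table. Skil and Bmp8a were picked because their counts had risen in aSyn-treated cells, and Skil also in acceptor cells, so their values in those contrasts are a description without a test. The other 7 genes were picked for their place in the pathway. All 9 were chosen with earlier results of these data known, so no test here is wholly free of that knowledge. All 9 genes were among the 13169 that passed the filter on low counts.

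Primary microglia came from neonatal C57BL/6 mice, with the cells of 2 brains pooled per flask. They were shaken off an astrocyte layer grown in medium with L929 cell supernatant. Untreated cells received no aSyn and gave 6 libraries from 4 experiments, and cells given 1 µM Atto-488-labelled aSyn for 14 h without co-culture gave 4 libraries. Donors had received the same aSyn, and acceptors had received CellTracer Violet dye and no aSyn. Donors and acceptors were mixed for 15, 30, 60, 150 or 300 min and sorted apart by flow cytometry, and further groups are labelled 0 min. Donors gave 3 libraries at 0 and 60 min and 4 at the other times, and acceptors gave 3 libraries at 0 and 300 min and 4 at the other times. All cells carried the strain's own genome, with no transgene or deletion named. Experiments 1 to 4 were of passage 3, 1, 2 and 2. Whether untreated and aSyn-treated cells also passed through the sorter, and whether experiments came from separate litters, is not given in the sources used here. The spread that p-values measure may thus be partly technical. It is the spread between experiments, or what remains of it where the level of each experiment is fitted as a block. In bulk RNA, fewer cells of a type and less RNA per cell cannot be told apart.

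In the TGF-beta pathway the ligand binds the type II receptor TGFBR2, which activates the type I receptor TGFBR1, and this receptor phosphorylates receptor SMADs such as SMAD3. The SMADs enter the nucleus with SMAD4 and switch target genes on or off, and SKI, the SKI-related protein SnoN (encoded by Skil) and TGIF1 bind them there and repress transcription. SMAD7 blocks the type I receptor, and both Smad7 and Skil are themselves known target genes that act as negative feedback. In the brain, TGF-beta1 is known for keeping microglia in their resting, homeostatic state.

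The 54 libraries held between 7807389 and 15537493 counts, with a median of 13036175.5. Experiment 4 stood apart by its share of the ribosomal precursor Rn45s, a mean of 18.2% of counts against 6.60% in the other experiments. The 8 microglia and macrophage markers, Csf1r, Tyrobp and C1qa among them, were present in every sample and summed to between 2672 and 10116 CPM, counts scaled to a common library total, with the lowest sums in experiment 4. The 7 astrocyte markers summed to 6.70, 9.08, 80.4 and 131 CPM in untreated cells of experiments 1 to 4, against 8.29, 4.95, 11.1 and 24.5 CPM in aSyn-treated cells. Gfap was at 0 in 18, Aqp4 in 27 and Gja1 in 17 of the 52 experimental samples. S100b was at 0 in 2, Slc1a2 in 1, and Slc1a3 and Aldoc in 0 of them. The untreated libraries that share a number, in experiments 2 and 4, were summed, which leaves 4 untreated samples. Same-numbered samples deviated together from their group means, so each test was run without and with the experiment as a block. A gene was called at a Benjamini-Hochberg adjusted p under 0.05 over all 13169 genes in the quasi-likelihood test of edgeR.

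The stretches upstream of Bmp8a and Tgfbr2 are shown because the levels of these genes ran most nearly opposite to each other over the 14 groups (Pearson r of -0.86 over 14 group effects on the log2 CPM scale, a description). Each run is the 250 bases before the RefSeq start on the gene's own strand, 5′ to 3′, in build GRCm38.p6: chr4:123343253-123343502 (minus strand) for Bmp8a and chr9:116175364-116175613 (minus strand) for Tgfbr2. Capitals mark the SMAD box, CAGAC or its complement GTCTG, searched on both strands, of which each run holds 1.
Bmp8a: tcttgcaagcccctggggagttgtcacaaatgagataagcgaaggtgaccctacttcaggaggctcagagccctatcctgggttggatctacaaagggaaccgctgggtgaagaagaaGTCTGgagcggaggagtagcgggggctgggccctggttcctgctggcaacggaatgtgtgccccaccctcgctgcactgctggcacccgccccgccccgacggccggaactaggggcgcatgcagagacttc
Tgfbr2: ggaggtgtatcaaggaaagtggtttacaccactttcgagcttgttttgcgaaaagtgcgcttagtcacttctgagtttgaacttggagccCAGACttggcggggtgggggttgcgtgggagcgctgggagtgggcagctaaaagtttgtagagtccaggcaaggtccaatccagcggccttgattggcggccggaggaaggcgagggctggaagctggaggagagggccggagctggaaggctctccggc
The same motif lies in 42.2% of the 32851 mouse promoters of this length, so its presence is common and is a description of letters. Promoters were matched for 7 of the 9 genes, not for Skil and Smad7. None was found in the runs of Tgfb1, Smad3 and Ski, and no member's run held the paired SMAD box GTCTAGAC or the AP-1 site TGANTCA, which lie in 0.167% and 6.75% of promoters. The GC-rich element GGCGCC, in 9.59% of promoters, occurred once each upstream of Ski and of the first of 2 starts of Tgfbr1.

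**Figure D1:**
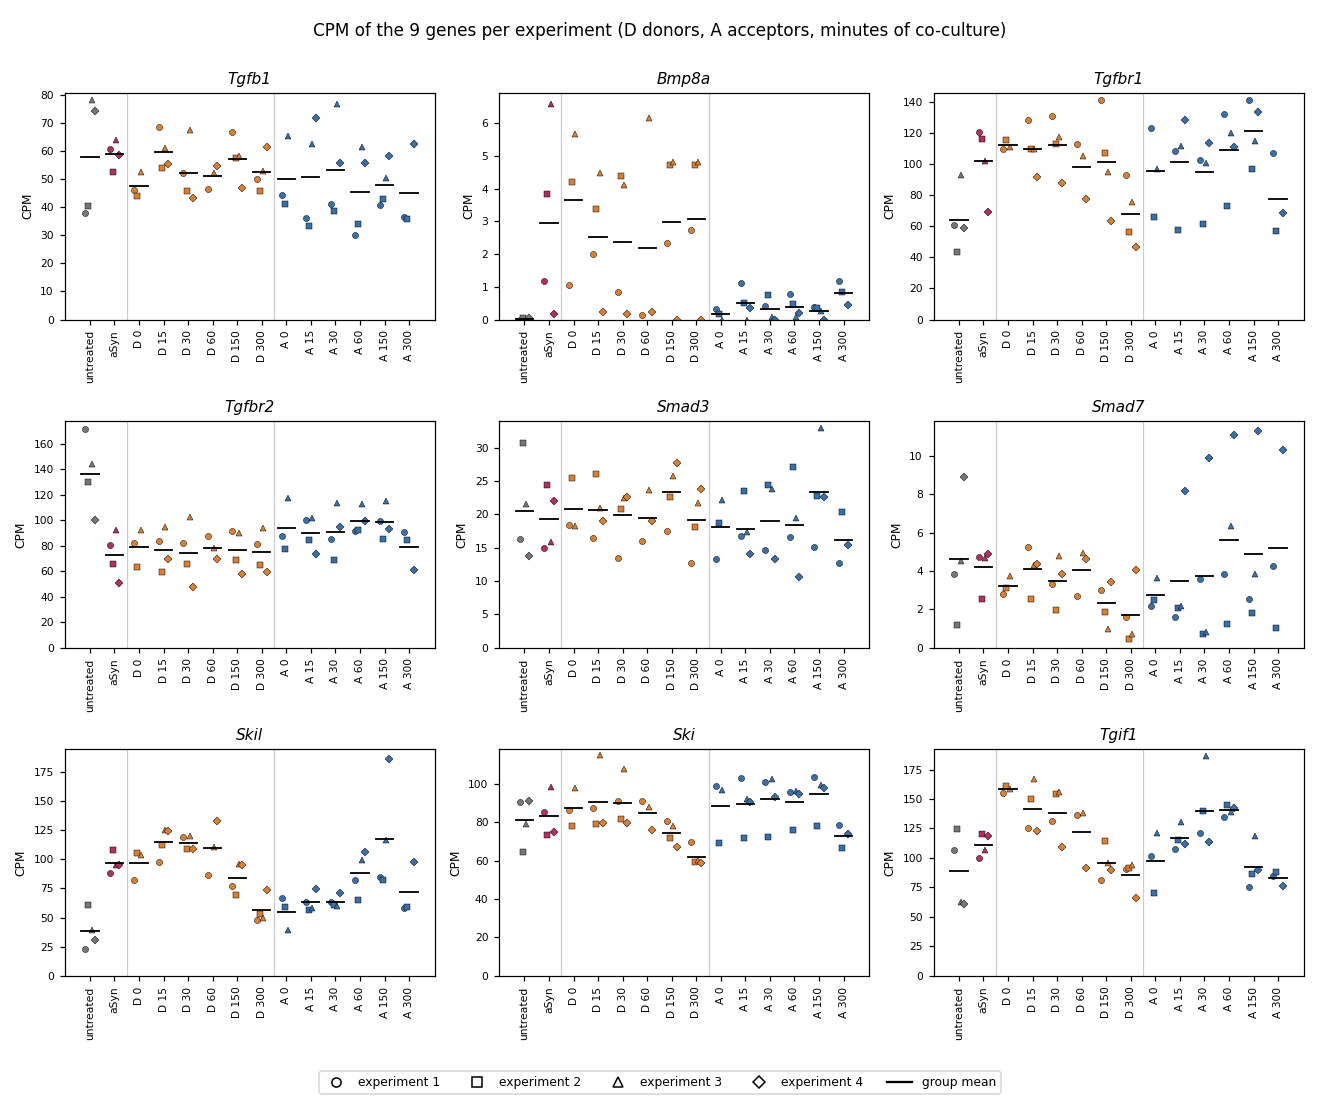
CPM (y axis, linear from 0) of the 9 genes in the 14 groups (x axis, D for donors and A for acceptors with minutes of co-culture), with 1 symbol per experiment and a bar at the group mean. Tgfbr2 is highest in untreated cells, Skil is lowest there, and Bmp8a stands above 1 CPM in aSyn-treated cells and most donors of experiments 1 to 3 and in 2 acceptor samples.

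Among the ligands, Tgfb1, which encodes TGF-beta1 (chr7:25687002-25705077, plus strand, GRCm38), kept a similar level in all groups. Its group means ran from 44.9 CPM in acceptors at 300 min to 59.7 CPM in donors at 15 min. Untreated cells gave 37.7, 40.3, 78.2 and 74.2 CPM in experiments 1 to 4, and aSyn-treated cells 60.6, 52.3, 63.7 and 58.4 CPM. The aSyn-treated values all lay inside the untreated range, and the experiment accounted for 42.2% of the variance of log2 CPM against 17.3% for the group. The fitted log2 difference was 0.03 ± 0.24 (SE, 4 against 4 samples, adjusted p = 0.972, edgeR).

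Bmp8a, a BMP-family ligand (chr4:123312645-123343252, minus strand, overlapping Oxct2a on the same strand), was nearly silent without aSyn. Untreated cells held 0, 1, 0 and 1 counts in experiments 1 to 4. The aSyn-treated cells held 16, 54, 83 and 2 counts, which is 1.18, 3.84, 6.60 and 0.175 CPM. The rise was thus carried by experiments 1 to 3, and the experiment 4 sample stayed under 3 counts. The pooled level was 107-fold that of untreated cells, a ratio that is poorly fixed because the untreated total was 2 counts. Bmp8a was chosen on this contrast, so no test is given.

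In donors Bmp8a was again high in experiments 2 and 3 and low in experiment 4, while experiment 1 varied with time. At 0 min donors of experiments 1 to 3 gave 1.05, 4.20 and 5.68 CPM, and acceptors gave 0.323, 0.161 and 0 CPM. At 150 min donors of experiments 1 to 4 gave 2.34, 4.73, 4.81 and 0 CPM and acceptors 0.391, 0.359, 0.266 and 0 CPM. At 300 min donors gave 2.72, 4.71, 4.81 and 0 CPM. Experiment 4 never passed 3 counts in a donor sample. At 15 min donors gave 2.01, 3.38, 4.47 and 0.238 CPM, and at 30 min 0.835, 4.38, 4.12 and 0.172 CPM. At 60 min donors of experiments 1, 3 and 4 gave 0.154, 6.16 and 0.235 CPM, against 0.779, 0.0744 and 0.185 CPM in acceptors of the same experiments. The experiment 1 donor at 60 min, with 2 counts, thus lay below its acceptor. Acceptors stayed between 0 and 1.18 CPM over all times, with the highest values in experiment 1 at 15 and 300 min. The acceptor level at 0 min rested on 3, 2 and 0 counts, and the pooled ratio of donors to acceptors there was 27.8 (exact 95% binomial interval 11.7 to 86.8, counting error only).

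Donors against acceptors is a contrast whose libraries did not enter the choice of Bmp8a. Donors had received the same aSyn and acceptors none, so it repeats the difference that chose the gene. Its p-values are thus no separate support for a rise with aSyn. On the log2 scale donors exceeded acceptors by 4.54 ± 1.61 (SE) at 0 min, in 3 of 3 pairs, with an edgeR adjusted p of 0.364 without the block and 0.0190 with it. At 150 min it was 3.51 ± 1.29 (SE) and higher in 3 of 4 pairs, with both samples of the remaining pair at 0 (adjusted p = 0.366, and 0.0315 with the block). With the block and 1 experiment left out, the adjusted p at 0 min ran from 0.00502 to 0.255 and passed only without experiment 1 or 4. The 0 min groups hold no sample of experiment 4, so leaving it out removed none of the samples compared there. The 150 min value passed only without experiment 4, and its log2 fold change lay between 2.92 and 3.86 over all settings tried. At 15, 30, 60 and 300 min the block gave adjusted p-values of 0.200, 0.0511, 0.184 and 0.690. No change over time was called for Bmp8a in donors or acceptors. Of the 2402 windows of 50 bases in the Bmp8a transcripts, 8.74% also occur in its paralog Bmp8b, so some reads may have been shared between them. Values of Bmp8b are not reported here.

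Among the receptors, Tgfbr2, the type II receptor that binds the ligand (chr9:116084293-116175360, minus strand), fell in aSyn-treated cells to 0.531 of its untreated mean. Untreated cells gave 172, 129.8, 144 and 101 CPM in experiments 1 to 4, and aSyn-treated cells gave 81.1, 66.0, 92.1 and 51.2 CPM. Every aSyn-treated value lay below every untreated value, and each experiment fell. The group means were 137 ± 29.7 and 72.6 ± 17.8 CPM (SD, n = 4 each). The log2 fold change was -0.91 ± 0.21 (SE, lower in 4 of 4 pairs), with an edgeR adjusted p of 0.00899 without and 1.08e-06 with the block. Tgfbr2 was the 1 gene called of the 7 members tested here, against 2.5% of all genes, and with the block 2 of 7 were called, against 19.2% of all genes. Without the block the call was lost when experiment 1 (adjusted p = 0.127) or 2 (0.0764) was left out and when only these 2 groups were fitted (0.130), while with the block it held whichever experiment was left out, the highest adjusted p being 5.15e-04.

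Astrocyte transcripts moved in the same contrast: 5 of 7 astrocyte markers were lower in aSyn-treated cells with the block, and 0 without it. Of 4 oligodendrocyte lineage markers 1 was lower with the block and 0 without it. These 4 summed to between 93.5 and 489 CPM in untreated cells and between 59.3 and 222 CPM in aSyn-treated cells. Of 3 fibroblast and endothelial markers 1 was higher. In experiments 1 and 2, where the summed astrocyte level of untreated cells was 6.70 and 9.08 CPM, Tgfbr2 fell from 172 to 81.1 and from 129.8 to 66.0 CPM, and the smallest drop of the 4 was in experiment 3. The part of other cell types in the Tgfbr2 difference was not tested.

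Tgfbr2 was also lower in acceptors, which had received no aSyn. At 15 min acceptors gave 100.3, 84.9, 102.0 and 73.5 CPM in experiments 1 to 4, at 60 min 91.8, 92.4, 113 and 99.4 CPM, and at 300 min 91.0, 84.7 and 61.4 CPM in experiments 1, 2 and 4. Acceptors lay below the untreated sample of their own experiment in every pair at every time, though the groups overlapped at all times but 300 min, because the untreated sample of experiment 4 was low. The log2 fold changes at 0, 15, 30, 60, 150 and 300 min were -0.53, -0.60, -0.59, -0.46, -0.47 and -0.79. None was called by edgeR without the block (lowest adjusted p = 0.381). With the block all 6 were, with adjusted p-values of 0.0205, 0.00584, 0.00602, 0.0299, 0.0211 and 0.00668. These block calls rested on experiments 1 to 3: leaving out any 1 of them ended the call at 0, 15, 30, 60 and 150 min, and leaving out experiment 1 or 2 ended it at 300 min. The 6 comparisons share the same untreated samples, so they are not separate observations. Summed astrocyte markers in acceptors were 3.71 to 38.7 CPM, below the untreated 80.4 and 131 CPM of experiments 3 and 4, and with the block between 0 and 2 of the 7 markers were lower at each time. The 4 oligodendrocyte lineage markers summed to between 51.1 and 170 CPM in acceptors. With the block 1 of these 4 was lower at 0, 15, 30, 60 and 300 min, and 2 at 150 min, where 1 was called without it. In experiments 1 and 2, where untreated cells held 6.70 and 9.08 CPM of the astrocyte markers, Tgfbr2 was lower in acceptors at all 6 times. Whether other cell types had a part in the acceptor values was not tested.

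Donors held Tgfbr2 at the aSyn-treated level, from 47.3 to 102 CPM over all donor samples, and the change over time was not called (edgeR adjusted p = 1.00 with and without the block). Donors were lower than acceptors of the same experiment in every pair at all 6 times, but none of these differences was called, and the lowest adjusted p-values with the block were 0.0684 at 60 min and 0.0695 at 150 min. In the order of the 14 group means untreated cells came first, the 6 acceptor groups took ranks 2 to 6 and 8, and aSyn-treated cells came last. Each group overlapped its neighbour in that order.

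Tgfbr1, the type I receptor and kinase (chr4:47353222-47414931, plus strand), ran the other way. Untreated cells gave 60.9, 43.6, 93.1 and 59.0 CPM in experiments 1 to 4 and aSyn-treated cells 121, 116, 102 and 69.4 CPM. Each experiment was higher with aSyn, least in experiments 3 and 4, where the groups overlapped. The log2 fold change was 0.67 ± 0.26 (SE), with an edgeR adjusted p of 0.155 without and 0.0137 with the block. That block call was lost without experiment 1 (0.0968) or 2 (0.117).

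Acceptors at 150 min reached the highest Tgfbr1 group mean, with 141, 97.02, 115 and 134 CPM in experiments 1 to 4. All 4 lay above all untreated samples, the closest being 97.02 against 93.1 CPM. The log2 fold change against untreated cells was 0.92 ± 0.26 (SE, higher in 4 of 4 pairs, adjusted p = 0.131, and 0.00420 with the block, lost without experiment 1 at 0.0734). At 60 min it was 0.77 ± 0.26 (SE, adjusted p = 0.346, and 0.0235 with the block, lost without experiment 1 or 3). At 300 min donors gave 92.9, 56.6, 75.5 and 46.9 CPM, below the 15 min donor sample of the same experiment in 4 of 4 pairs by a mean log2 difference of -0.73, but the time test did not call Tgfbr1 (adjusted p = 0.319 with the block, edgeR).

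**Figure D2:**
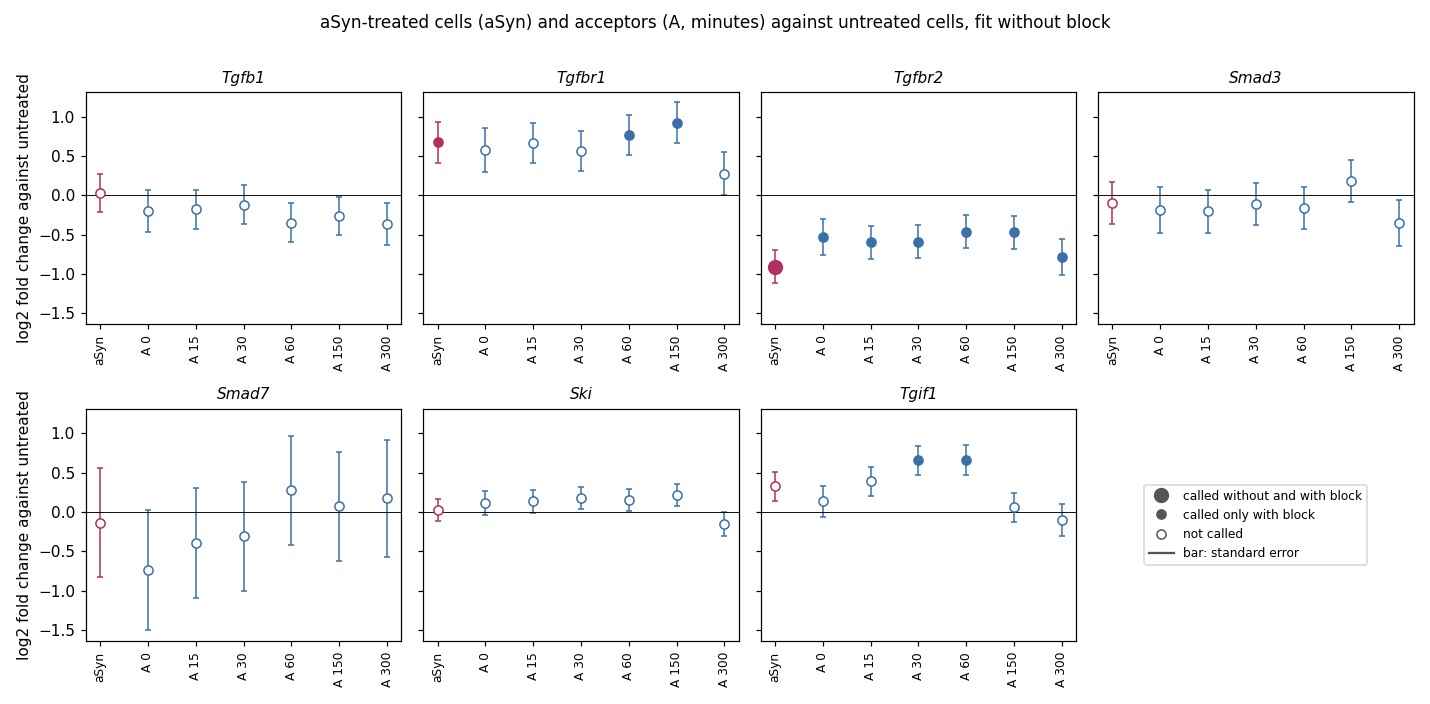
Log2 fold change against untreated cells (y axis) of the 7 genes picked for their place in the pathway, for aSyn-treated cells and acceptors at 6 times (x axis), from the fit without the block with bars of 1 standard error. Tgfbr2 lies below 0 in every comparison, from -0.46 to -0.91, with 1 call without the block, and Tgfbr1 lies above 0 throughout.

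Neither SMAD gene was called in any comparison, without or with the block. Smad3, which carries the signal to the nucleus (chr9:63646767-63757994, minus strand), had group means between 16.2 and 23.4 CPM, with 16.2, 30.7, 21.6 and 13.8 CPM in untreated and 15.0, 24.4, 15.8 and 22.1 CPM in aSyn-treated cells. The aSyn-treated range lay inside the untreated one. On the log2 scale the difference was -0.09 ± 0.27 (SE, adjusted p = 0.902, edgeR). The experiment took 44.3% of its variance and the group 14.6%.

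Smad7, the inhibitory SMAD (chr18:75367529-75395935, plus strand), was a low transcript that split by experiment in acceptors. At 15 min acceptors gave 1.60, 2.06, 2.18 and 8.19 CPM in experiments 1 to 4, at 60 min 3.82, 1.22, 6.33 and 11.1 CPM, and at 150 min 2.54, 1.79, 3.85 and 11.3 CPM. Experiment 4 was highest at each of these times, and it was also highest among untreated cells with 8.90 CPM against 1.18 to 4.54 CPM. It is the experiment with the most Rn45s and the lowest microglia marker sums, and their part in these values was not tested. In donors Smad7 went from 5.26, 2.54, 4.31 and 4.36 CPM at 15 min to 1.62, 0.456, 0.712 and 4.07 CPM at 300 min. All 4 pairs were lower, by a mean log2 difference of -1.55 that was only -0.10 in the least changed pair, and the time test gave an edgeR adjusted p of 1.00, and 0.472 with the block.

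Skil, which encodes the corepressor SnoN (chr3:31095058-31122577, plus strand), had the largest group share of the 9 members. The group accounted for 76.3% of the variance of its log2 CPM and the experiment for 6.84%. Skil was chosen for its rise in aSyn-treated and acceptor cells, which favours a large group share, so this rank is a description only. Untreated cells gave 22.8, 60.4, 39.5 and 30.3 CPM in experiments 1 to 4, and aSyn-treated cells 88.6, 108, 95.4 and 95.2 CPM. Every aSyn-treated sample lay above every untreated one. The mean was 2.53-fold that of untreated cells, a value that chose the gene and has no test.

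By group mean, acceptors lay between these levels up to 60 min and above both at 150 min. They gave 66.6, 58.7 and 39.4 CPM at 0 min in experiments 1 to 3. Only experiment 1 lay above its own untreated sample at that time. At 15 and 30 min all 8 acceptor samples lay between 56.4 and 74.8 CPM. At 60 min they gave 81.8, 65.2, 99.5 and 106 CPM, and at 150 min 84.9, 81.9, 116 and 186 CPM. No acceptor sample at 60 or 150 min overlapped the untreated ones, and the 186 CPM of experiment 4 stood above all other samples. The 150 min mean was 3.07-fold the untreated mean. At 300 min acceptors gave 58.0, 59.1 and 97.6 CPM, lower than at 150 min in 3 of 3 pairs by a mean log2 difference of -0.65.

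In donors Skil was high early and low at 300 min. The choice of the gene did not use this course, though earlier results of these data were known. Donors gave 81.9, 105 and 103 CPM at 0 min, 97.4, 112, 125 and 124 CPM at 15 min, and 119, 109, 119.9 and 109 CPM at 30 min. At 150 min they gave 76.9, 68.9, 95.7 and 95.1 CPM, and at 300 min 48.1, 52.7, 49.7 and 73.8 CPM. All 4 samples at 300 min lay below all samples at 0, 15, 30 and 60 min. The mean log2 difference between 300 and 15 min was -1.04, and lower in 4 of 4 pairs. Donors thus lay above acceptors in every pair up to 60 min and below them in every pair at 150 and 300 min, with fitted log2 differences from 0.86 at 15 min to -0.48 at 150 min. These donor to acceptor differences are given without a test.

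Ski, the founding member of the corepressor family (chr4:155154075-155222592, minus strand), was also low at 300 min, in donors and in acceptors. Its levels with and without aSyn overlapped. Untreated cells gave 81.4 ± 12.4 CPM and aSyn-treated cells 82.9 ± 11.5 CPM (SD, n = 4 each). Donors gave 87.6, 78.8, 115 and 79.5 CPM at 15 min and 69.9, 59.3, 60.1 and 58.6 CPM at 300 min in experiments 1 to 4. No donor sample at 300 min reached any at 15 min, and the mean log2 difference was -0.53, lower in 4 of 4 pairs. Acceptors at 300 min were lower than at 15 min in 3 of 3 pairs, by a smaller mean log2 difference of -0.26. They were also lower than at 150 min in 3 of 3 pairs, by -0.34. The time test did not call Ski in acceptors (edgeR adjusted p = 0.750 with the block). Against aSyn-treated cells donors at 300 min gave a log2 fold change of -0.42 ± 0.14 (SE, 4 of 4 pairs lower, adjusted p = 1.00 in edgeR, and 0.0231 with the block). That block call was lost without experiment 1 (0.189), 2 (0.212) or 3 (0.380). At 150 min donors lay under acceptors in 4 of 4 pairs (log2 -0.35 ± 0.14 SE, adjusted p = 0.467, and 0.0192 with the block), a call lost when any 1 of the 4 experiments was left out.

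Tgif1, a homeodomain corepressor (chr17:70844205-70853546, minus strand), had its highest group mean in donors at 0 min and, among acceptors, at 60 min. Donors at 0 min gave 155.5, 161 and 158 CPM in experiments 1 to 3, against 101.5, 70.3 and 121 CPM in acceptors. All donors lay above all acceptors, and the log2 fold change was 0.70 ± 0.22 (SE, adjusted p = 0.226 in edgeR, and 0.0198 with the block, lost without experiment 1 or 2). Donors at 300 min gave 90.6, 91.7, 94.2 and 65.6 CPM, lower than at 15 min in 4 of 4 pairs by a mean log2 difference of -0.73.

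Acceptors gave 135, 145, 139 and 143 CPM of Tgif1 at 60 min, and at 300 min gave 84.6, 87.9 and 76.2 CPM. Untreated cells spread from 60.8 to 125 CPM, all below the 60 min acceptors. The log2 fold change against untreated cells was 0.66 ± 0.19 (SE) at both 30 and 60 min, with edgeR adjusted p-values of 0.221 and 0.166, and 0.0183 and 0.0108 with the block. With the block the 30 min call held only without experiment 2, and the 60 min call was lost without experiment 3 or 4. Tgif1 in aSyn-treated cells, at 99.9, 119.9, 107 and 119 CPM, lay within the untreated range (log2 0.33 ± 0.19 SE, adjusted p = 0.373).

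**Figure D3:**
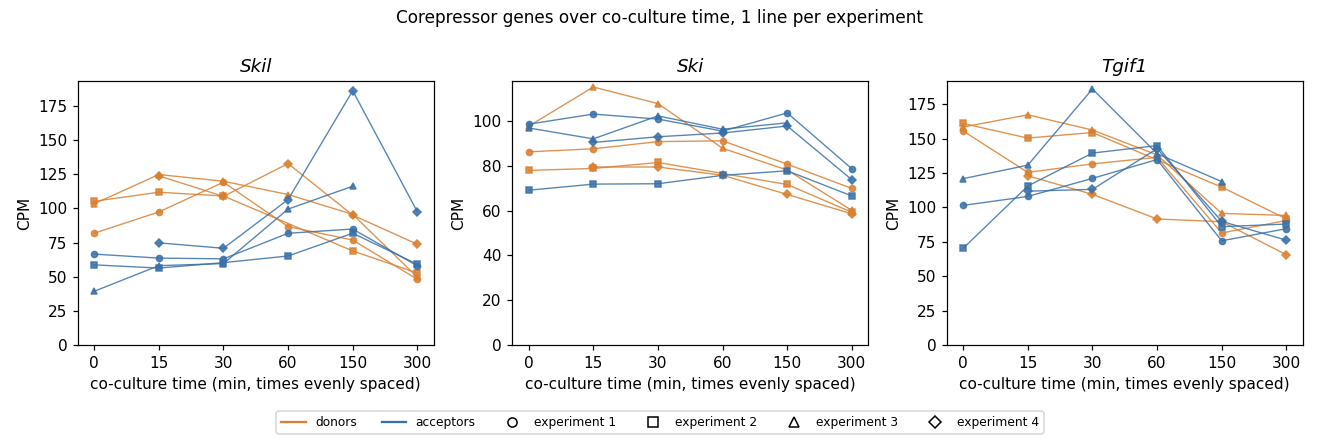
CPM (y axis) of Skil, Ski and Tgif1 against co-culture time (x axis, 6 times drawn evenly spaced), with 1 line per experiment, donors in orange and acceptors in blue. All 3 genes are lower in donors at 300 min than at 15 min in each of 4 experiments, and Skil in acceptors peaks at 150 min, at 186 CPM in experiment 4.

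The test of any change over the 6 co-culture times in donors called 0 of 9 members without the block (3 at an unadjusted p under 0.05), against 0.0607% of all genes, and 2 with DESeq2. With the block it called 3 of 9, against 0.577% of all genes, and these were the 3 corepressors: Ski (edgeR adjusted p = 0.00238), Tgif1 (0.00854) and Skil (0.0121). None of the 3 was called with the block when experiment 1, 2 or 3 was left out, and all 3 were without experiment 4, at 0.00633 for Ski and Skil and 0.0169 for Tgif1. In acceptors none of the 8 members tested was called without or with the block (1 at an unadjusted p under 0.05, and 0 with DESeq2), against 0.00759% and 0.137% of all genes, and Tgif1 was closest at 0.0538 with the block. None of the 8 members tested, Skil left out, was called for a difference in time course between donors and acceptors (edgeR adjusted p = 1.00 for each, without and with the block).

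Counts of called members stayed small in the other comparisons. In donors against aSyn-treated cells 0 of 7 members were called at any time, against 0% of all genes at 0, 15, 30, 60 and 150 min and 0.0304% at 300 min. The numbers at an unadjusted p under 0.05 were 1 at 0 min, 3 at 300 min and 0 between, and DESeq2 called 0. The block added Ski at 300 min, against 0% of all genes at 0 to 150 min and 0.304% at 300 min.

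In acceptors against untreated cells 0 of 7 members were called at the 6 times, against 0%, 0%, 0.114%, 0.0683%, 0.137% and 0% of all genes, with between 1 and 3 at an unadjusted p under 0.05 and 1 call by DESeq2 (Tgfbr1 at 150 min, adjusted p = 0.0414). With the block 1, 1, 2, 3, 2 and 1 were called, against 0.995%, 2.25%, 3.6%, 4%, 4.78% and 0.623% of all genes. In donors against acceptors 0 of 8 were called at the 6 times, against 0.251%, 0.888%, 0.805%, 0.418%, 0.167% and 0.0304%, with between 0 and 2 at an unadjusted p under 0.05 and 0 with DESeq2. With the block 2, 0, 0, 0, 2 and 0 were called, against 4.28%, 9.57%, 10.8%, 6.7%, 5.19% and 1.38%. Bmp8a was 1 of the 2 at 0 min and at 150 min, in a contrast that repeats the aSyn difference behind its choice.

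Around these genes, a list of 85 further pathway symbols was read, of which 67 were tested. In aSyn-treated against untreated cells 2 of 67 were called, both higher, against 2.5% of all genes, and with the block 12 were higher and 9 lower, against 19.2% of all genes. The 2 calls are thus near the share over all genes. The list's median log2 fold change was 0.03, beside -0.04 over all genes. Of 11 target genes of the pathway 2 were called, and with the block 5 were higher and 0 lower. Of 9 receptors and co-receptors and 5 SMADs none was called, and with the block 1 was higher and 1 lower in each.

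Both calls were target genes. Tgfbi, a matrix protein named for its induction by TGF-beta, gave 14.6, 26.4, 20.7 and 16.9 CPM in untreated cells of experiments 1 to 4 and 52.1, 81.2, 50.4 and 63.6 CPM in aSyn-treated cells. Every aSyn-treated sample lay above every untreated one (log2 1.65 ± 0.42 SE, edgeR adjusted p = 0.0208). The call was lost without experiment 1 (0.110) or 3 (0.138), and with the block it held whichever experiment was left out.

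In donors against acceptors 2, 3, 3 and 1 of the 11 target genes were called at 0, 15, 30 and 60 min, all higher, with list medians of 0.88, 0.08, 0.10 and 0.12 on the log2 scale. Tgfbi in donors at 15 min stood at 81.9, 90.6, 64.8 and 59.7 CPM in experiments 1 to 4, against 19.2, 34.95, 13.4 and 10.3 CPM in acceptors. The groups did not overlap (log2 1.94 ± 0.42 SE, edgeR adjusted p = 0.0108), and the same held at 30 min (log2 1.71 ± 0.42 SE, adjusted p = 0.0311). At 300 min acceptors gave 15.4, 35.03 and 76.6 CPM in experiments 1, 2 and 4 and donors 57.8, 56.4, 49.4 and 99.2 CPM, which overlapped. Whether the difference itself changed with time was not tested for this gene.

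Klf10, an early TGF-beta response factor, was called at 15 and 30 min (log2 0.95 and 1.05), and Bhlhe40, a transcriptional repressor, at 0 min (2.21). Klf10 in donors at 30 min gave 44.4, 40.7, 52.7 and 19.96 CPM and in acceptors 18.97, 18.6, 20.03 and 18.4 CPM, so that the groups met in the donor sample of experiment 4. The calls for the 67 genes at the 6 times were thus 2, 3, 3, 1, 0 and 0, all higher in donors, and 4, 11, 9, 7, 2 and 1 with the block, of which 4 at 15 min, 3 at 30 min and 2 at 60 min were lower in donors. Over all genes the shares were 0.251%, 0.888%, 0.805%, 0.418%, 0.167% and 0.0304% without the block and 4.28%, 9.57%, 10.8%, 6.7%, 5.19% and 1.38% with it. These calls leaned on single experiments: of the 9, 1 was left without experiment 1, 2 without experiment 3 and 5 without experiment 2, while there were 17 without experiment 4. In acceptors against untreated cells 0 of 67 were called by edgeR without the block, against 0% to 0.137% of all genes, and 2 by DESeq2.

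Id3, a SMAD target and inhibitor of DNA binding that was singled out after its values were seen, was the pathway gene nearest to a call in acceptors. Untreated cells gave 1.82, 3.58, 20.1 and 15.4 CPM in experiments 1 to 4 and acceptors at 60 min 36.0, 23.1, 54.0 and 93.3 CPM. Every acceptor sample lay above every untreated one (log2 2.33 ± 0.52 SE, edgeR adjusted p = 0.0624, and 0.00141 with the block, where it held whichever experiment was left out). Id3 in aSyn-treated cells was 10.7, 27.4, 18.8 and 14.7 CPM and overlapped the untreated range.

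**Figure D4:**
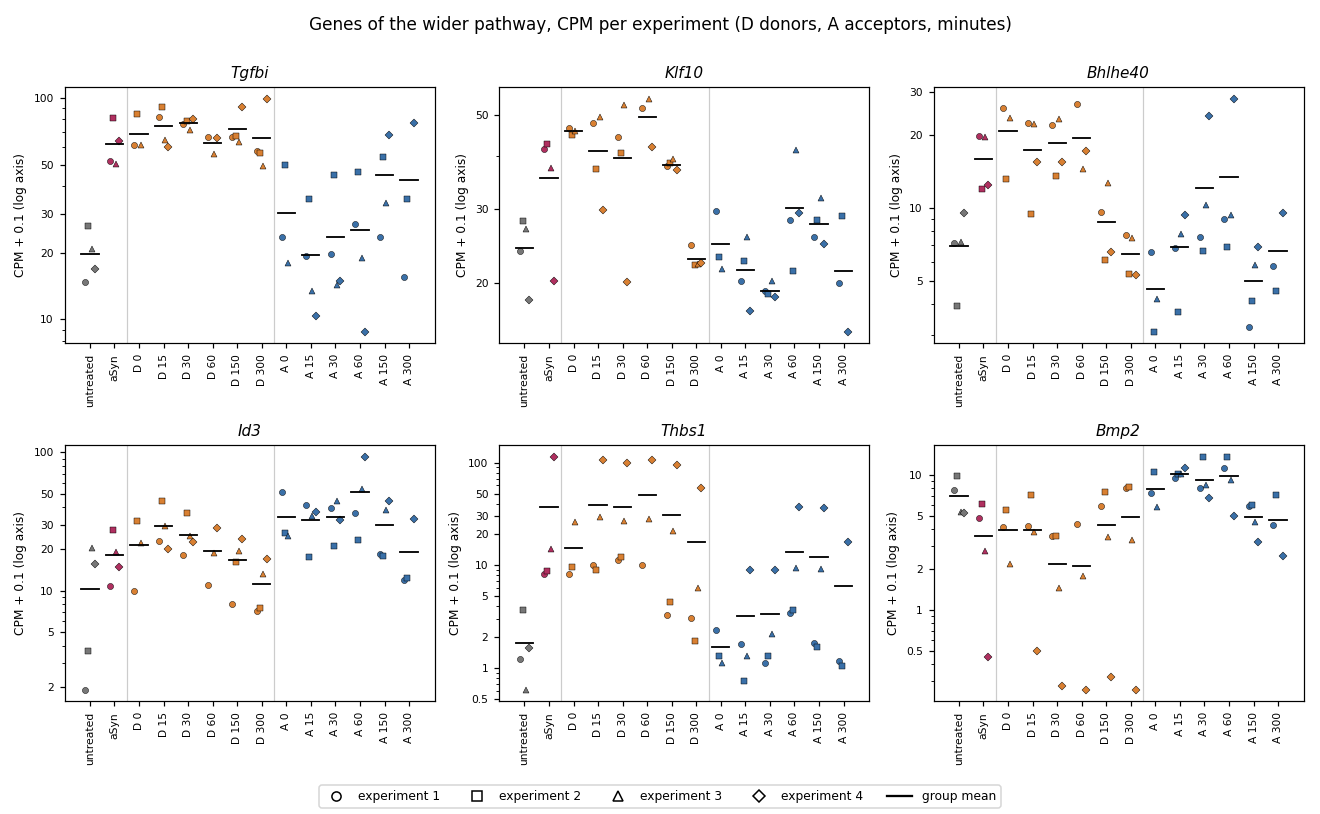
CPM plus 0.1 (y axis, log scale) of 4 target genes (Tgfbi, Klf10, Bhlhe40 and Id3), Thbs1, which activates latent TGF-beta, and the BMP ligand Bmp2 in the 14 groups (x axis), with 1 symbol per experiment and a bar at the group mean. Tgfbi is between 59.7 and 90.6 CPM in donors at 15 and 30 min and between 10.3 and 44.9 CPM in acceptors at those times.

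Likeness of pattern was measured as Pearson r over the 14 group effects of log2 CPM, as a description. The genes most like Skil were Bcl3 (0.975), Sh2b2 (0.970), Tlr2 (0.967), Smim3 (0.952) and Trem1 (0.9497). Those most like Bmp8a were Ext1 (0.967), Soat2 (0.953), Eif5 (0.9503), Dnajc3 (0.947) and 4933432I03Rik (0.947). Within the 9 members, Tgfbr1 was most like Skil (0.848), Tgfbr1 and Ski followed (0.713), and Tgfbr2 ran against Skil (-0.63). The groups share experiments, libraries of one depth range and the same untreated reference, and the points are 14 in each case.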

How the data were processed

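RNA of 54 libraries in 14 groups was measured by QuantSeq 3′ sequencing with 50 bp single reads, per the labels' protocols. The values used are raw counts for each gene symbol as the authors deposited them, per the file headers. The submitters' processing notes name STAR, Partek, DESeq2 and build mm10, and further settings are not given in the sources used here. A deposited normalized table was not used. Groups and experiment numbers came from the labels. The 9 members and all gene lists were chosen with earlier results of these data known.

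Counts were tested with edgeR (version 4.0.16, R 4.3.3) using TMM normalization, a minimum count of 10 in filterByExpr by group, and the quasi-likelihood test fitted to all 14 groups (52 samples, since same-numbered untreated libraries were summed), for 19 pairwise comparisons and 2 time tests. Standard errors come from the fold change and its F statistic. CPM are edgeR values on TMM-scaled totals. Unscaled library totals lie between 7807389 and 15537493 counts. Group effects for likeness come from a linear model with group and experiment on log2 CPM with a prior count of 2. The code was tested on simulated counts. No molecular identifiers are named, so intervals cover counting error only.

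The labels number the samples of every group by experiments 1 to 4, but not all groups hold all 4. Experiment 4 is absent from both 0 min groups, experiment 3 from acceptors at 300 min and experiment 2 from donors at 60 min. Same-numbered samples deviated together, with a mean correlation over genes of 0.339 to 0.593 in the 19 comparisons and a lowest single pair of 0.199, and the biological coefficient of variation was 38.1% without and 20.97% with the block. Alternatives were the block, DESeq2 (version 1.42.0), RLE normalization, no filter, only the groups compared, 6 untreated libraries kept apart and each experiment left out, and, added after seeing the data, each experiment left out with the block.

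Besides the 9 members, the rule names those other pathway genes that passed the test without the block and moved 1 way in every same-numbered pair, up to 5 rises and 5 falls per comparison, and the 5 genes most like Skil and Bmp8a. Gene positions are from GENCODE vM21 (GRCm38) and promoters from RefSeq (GRCm38.p6). Some genes of the pathway list are counted but not reported by name here.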

Additional observations from a re-analysis of the deposited data

Results flagged for a closer look

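In groups of 4 samples, 5 of 90 sets of 1 gene in 1 group held a sample whose gap to the nearest other sample was above Dixon's 95% critical value, which chance does in about 1 of 20 sets. Smad7 in acceptors at 15 min was 8.19 CPM in experiment 4, against 2.18 CPM in the nearest sample. Smad7 in aSyn-treated cells was 2.56 CPM in experiment 2, with the nearest sample at 4.69 CPM. Ski in acceptors at 60 min was 75.8 CPM in experiment 2 and 94.6 CPM in the nearest sample. Ski in donors at 300 min was 69.9 CPM in experiment 1, next to 60.1 CPM, and Tgif1 in donors at 300 min was 65.6 CPM in experiment 4, next to 90.6 CPM.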

How the results depend on the processing

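The counts of called genes moved mainly with the experiment block, and no called change turned its direction under any setting. In aSyn-treated against untreated cells the 1 called member became 2 with the block, 0 with only the compared groups, 2 with the 6 untreated libraries apart and 0 to 1 with an experiment left out. In donors against aSyn-treated cells 0 became 1 with the block. In acceptors against untreated cells 0 became 10 with the block, 1 with DESeq2 and 1 with the libraries apart. In donors against acceptors 0 became 4 with the block, with Bmp8a among them at 0 and 150 min, and 0 to 1 with an experiment left out. Over time in donors 0 became 3 with the block and 2 with DESeq2.

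For the 67 other pathway genes, in the same order, the 2 calls with aSyn became 21 with the block, 1 with only the compared groups, 4 with the libraries apart and 0 to 5 with an experiment left out. In donors against aSyn-treated cells 0 became 2 with the block. In acceptors 0 became 22 with the block, 2 with DESeq2, 2 with the libraries apart and 0 to 1 with an experiment left out. In donors against acceptors 9 became 34 with the block, 3 with only the compared groups and 1 to 17 with an experiment left out. Over time in donors 0 became 4 with the block, 3 with DESeq2 and 0 to 2 with an experiment left out.

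Leaving out experiments 1, 2, 3 and 4 in turn with the block, a setting chosen after seeing the data, gave 1, 2, 2 and 2 called members with aSyn, up to 2 in donors against aSyn-treated cells, 1, 5, 2 and 8 in acceptors, 0 to 4 in donors against acceptors (1 without experiment 1 or 3) and 3 over time in donors without experiment 4. For the other pathway genes it gave 14, 16, 8 and 14 with aSyn, up to 3 in donors against aSyn-treated cells, 2, 15, 4 and 15 in acceptors, 21, 27, 18 and 53 in donors against acceptors, and up to 6 over time in donors (1 without experiment 3). The cause was not tested, except that leaving out an experiment leaves fewer samples. RLE normalization and no filter moved none of these counts by over 1.5 times. Bmp8a, at 0 to 3 counts in many samples, is limited by depth.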

Other observations

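Of 11 genes that microglia are known to keep up under TGF-beta, 0 were called by edgeR in aSyn-treated cells without the block, against 2.5% of all genes, and with it 2 were higher and 3 lower, against 19.2%. Mertk, a receptor for dying cells, had means of 168 CPM with aSyn and 122 CPM without (log2 0.46 ± 0.25 SE, adjusted p = 0.348, and 0.0212 with the block, lost without experiment 1 or 3). Mertk and the genes below were picked after their values were seen.

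Levels of the BMP ligand Bmp2 at 15, 30 and 60 min were 3.79, 2.10 and 2.02 CPM in donors and 10.2, 9.07 and 9.70 CPM in acceptors (group means), and the groups did not overlap. The block gave edgeR adjusted p-values of 0.0128, 0.00238 and 0.0163, against 0.477, 0.230 and 0.336 without it, and each block call was lost without experiment 3, the 60 min one also without 1 or 2. Donors of experiment 4 held at most 0.40 CPM at any time. P2ry13, a purinergic receptor of resting microglia, was higher in donors than in acceptors at 150 min by 1.48 ± 0.68 (SE, log2, adjusted p = 0.551, and 0.00337 with the block, where it held whichever experiment was left out).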
